A study of Mus musculus with 7 samples.

Results

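Cadherins are calcium-dependent adhesion proteins of the cell surface. The classical cadherins join like cells at adherens junctions and bind catenins inside the cell, which link them to actin; beta-catenin also carries Wnt signals to the nucleus. Protocadherins are a larger branch with weaker adhesion. Most are known from neurons, where the clustered Pcdha, Pcdhb and Pcdhg genes give each cell a surface identity from a choice of promoters.

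The members are the genes of the deposited count table whose mouse symbol is Cdh followed by a number, or begins with Pcdh. They numbered 93 of 54532 features, with 23 Cdh and 70 Pcdh genes. The cells were C3H10T1/2, an established mouse line that the labels call mesenchymal stem cells. Osteoblast induction (OB, 4 libraries) lasted 3 days, in medium that held dexamethasone, a glucocorticoid drug whose dose the labels write ambiguously, 10 mM β-glycerophosphate and 50 µM L-ascorbic acid. Cells of the same line left untreated served as control (3 libraries). The design calls the replicates biological, but nothing says whether they came from separate thaws, so the spread that p-values rest on may be partly technical.

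Library totals were 21213328 to 46530017 fragments counted on genes, and the members took 0.121% to 0.168% of them. Levels are in CPM, the count divided by the library's scaled total on the usual scale, and 3 counts in a library equal 0.0645 to 0.141 CPM. The submitters' descriptions form 3 label sets, because OB 1 and control 1 begin with C1, OB 2 and control 2 with C2, and OB 3, OB 4 and control 3 carry no C number. Control 3 stood apart from the other 6 libraries, at -96.9 on the first principal component of log2 CPM against -25.3 to 52.0. All 10 mesenchymal markers passed the filter on low counts and 0 of 10 epithelial markers did. The summed epithelial level was 0.0463 to 0.258 CPM in OB and 0.317 to 0.404 CPM in control, and Epcam, Cldn3 and Cldn4 had 0 counts in all 7 libraries. All 12 genes of a mitosis list fell in OB by edgeR (with the replicate number as a block, Cdk1 did not pass, adjusted p = 0.0506). By limma-voom Aurkb and Bub1 did not pass (adjusted p = 0.0543 and 0.0555). With 1 library left out, the calls of Aurkb, Bub1, Cdk1 and Kif11 each ended in 6 of the 7 fits, while those of Ccnb2, Cdc20 and Cenpf held in all 7. Within the C1 and C2 libraries only Ccnb2, Cenpf and Mki67 passed (edgeR adjusted p = 0.0241, 0.0251 and 0.0429). All remaining mitosis genes missed the threshold there, from Cdc20 (0.0530) up to Aurkb (0.102) and Cdk1 (0.126). The list had a summed level of 403 to 602 CPM in OB, against 896, 2301 and 2655 CPM in control 1, 2 and 3. In bulk RNA, fewer cells of a type and less RNA per cell cannot be told apart.

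Of the 93 members, 55 passed the filter and were tested, and 15 had 0 counts everywhere. For 14 of the 15 this allows a pooled level of up to 0.0136 CPM (3 counts over all libraries, counting error only), while Pcdhga10 has no exon bases of its own and could not be counted. Pcdh7 and Pcdh19 fell in OB and no member rose at an adjusted p under 0.05 by edgeR's quasi-likelihood test. Among all 15441 genes tested the background was 3.72% called lower and 4.32% called higher (8.04% either way), so that 2 of 55 members, 3.64%, is no more than the background. At an unadjusted p under 0.05 edgeR had 3 members higher and 5 lower, where 12.8% of all genes were higher and 12.4% lower. DESeq2 called 3 higher (Cdh2, Cdh13 and Pcdh1) and 4 lower (Pcdh7, Pcdh19, Cdh23 and Cdh24), against 8.59% and 7.89% of all genes. By limma-voom 0 members were higher and 4 lower, against 8.08% and 7.0% of all genes. With the replicate number as a block edgeR called 1 member higher and 2 lower, against 5.38% and 3.38% of all genes. With the label set as a block it called 4 higher and 4 lower, against 9.28% and 8.13%. Within the C1 and C2 libraries alone it called 1 higher and 1 lower, against 6.27% and 3.41%. The OB and control libraries did not overlap for 10 of the 55, 18.2% against a background of 25.5%. The median log2 fold change over the tested members was 0.21, beside -0.00402 over all tested genes. Of the 55, 39 are clustered genes, whose values depended on control 3. Without it the Pcdhb median moved from 0.42 to 0.12 and the Pcdhg median from 0.04 to -0.30. That of the 5 tested type II cadherins moved up, from 0.09 to 0.29. The median over all members without control 3 is not given here.

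Pcdh19 and Pcdh7 are the members that moved past the threshold, so their promoters are shown, as windows of 300 bases around the annotated RefSeq start (build GRCm38.p6). Pcdh19 encodes a delta-2 protocadherin, known in humans for an X-linked epilepsy, and lies at chrX:133582860-133688987 of mm10 on the minus strand. Pcdh7 encodes a delta-1 protocadherin and lies at chr5:57717967-58133230 on the plus strand. Capitals mark a GC box (GGGCGG) or the E-box of Snail and Zeb factors (CAGGTG), on either strand. The first window is chrX:133688944-133689243 on the minus strand and the second chr5:57717831-57718130 on the plus strand.
Pcdh19: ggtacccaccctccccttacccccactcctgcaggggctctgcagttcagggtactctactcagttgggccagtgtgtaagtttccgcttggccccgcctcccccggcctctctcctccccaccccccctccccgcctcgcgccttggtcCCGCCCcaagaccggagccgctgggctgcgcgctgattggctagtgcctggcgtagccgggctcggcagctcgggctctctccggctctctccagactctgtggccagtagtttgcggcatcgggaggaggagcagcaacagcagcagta
Pcdh7: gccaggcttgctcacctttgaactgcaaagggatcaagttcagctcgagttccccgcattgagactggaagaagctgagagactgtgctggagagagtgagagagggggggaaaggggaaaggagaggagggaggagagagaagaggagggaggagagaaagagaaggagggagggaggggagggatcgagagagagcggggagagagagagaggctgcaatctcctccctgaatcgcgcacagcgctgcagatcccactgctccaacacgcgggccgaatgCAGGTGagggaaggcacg

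Across 32851 promoter windows of the same length, 35.7% held the GC box and 20.2% the E-box. The short glucocorticoid receptor motif AGAACA, in 19.0% of windows, was not found on either strand of the Pcdh19 or the Pcdh7 window. Each of the printed windows held a single match among these motifs, so that no matches overlap. Of the 92 different member symbols, 22 had a window, 25 windows in all, and 3 of the 25 held AGAACA. A match is a description of letters only, and no match says nothing of binding elsewhere.

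Pcdh19 stood at 72.2, 48.0, 105 and 102 CPM in OB 1 to 4, against 156, 170 and 248 CPM in control 1 to 3. The groups did not overlap, and in each group the libraries with no C number were above those with one. The means were 81.7 ± 26.9 CPM in OB (SD, n = 4) and 191 ± 49.9 CPM in control (SD, n = 3), and the log2 fold change was -1.23 ± 0.29 (SE, edgeR adjusted p = 0.0409). Among the C1 and C2 libraries alone the log2 fold change was -1.44 (edgeR adjusted p = 0.0190). Among those with no C number it was -1.28. No p-value of a single gene within that set is given here or below, since the set has a single control. Calls within it are only counted, among the alternatives in the last section. With 1 library left out Pcdh19 kept its direction. Its edgeR adjusted p passed without control 1 (0.0476) and not without any other library (0.0562 to 0.119).

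Pcdh7 stood at 41.4, 26.2, 42.8 and 37.2 CPM in OB 1 to 4, against 89.0, 57.6 and 62.7 CPM in control 1 to 3. Again the groups did not overlap, with control 1 the highest library and OB 2 the lowest, as OB 2 was for Pcdh19. The means were 36.9 ± 7.55 CPM in OB (SD, n = 4) and 69.8 ± 16.9 CPM in control (SD, n = 3), and OB over control gave -0.92 ± 0.21 on the log2 scale (SE, edgeR adjusted p = 0.0379). Among the C1 and C2 libraries it was -1.12 (edgeR adjusted p = 0.0751) and among those with no C number -0.66. The call held without control 3 (adjusted p = 0.0499) and ended without each of the other 6 libraries (0.0635 to 0.0942). Of the Pcdh7 exon bases 21.1% overlap 4932441J04Rik on the opposite strand, where fragments were not counted. Both protocadherins fell in OB together with the 12 mitosis genes. Among the controls the mitosis list was lowest in control 1, as Pcdh19 was, while Pcdh7 was highest there. The part of the mitosis change in the fall of both protocadherins was not tested.

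**Figure D1:**
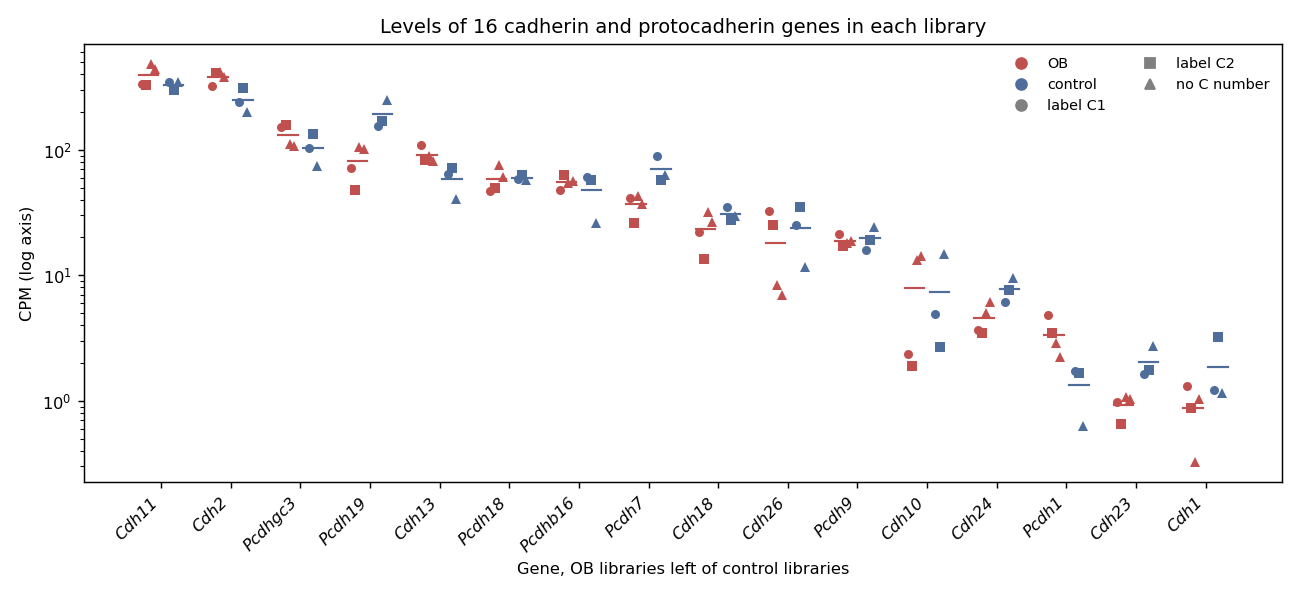
Level of 16 members in each library in CPM on a log axis, with the OB libraries left of the control libraries, a horizontal bar at each group's mean, and the marker shape showing the label set. Pcdh19 and Pcdh7 lie lower in every OB library than in any control library, while Cdh10 and Cdh26 separate by label set in both groups.

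The other non-clustered protocadherins did not pass. Of the genes given from here on, Pcdh1, Pcdh9, Cdh6, Cdh10, Cdh17, Cdh18, Cdh23, Cdh24, Pcdhb4, Pcdhb9, Pcdhb11, Pcdhb15, Pcdhga5, Pcdhgb1 and Adam10 were named after their values were seen. Pcdh18, a delta-2 member, averaged 58.2 ± 12.9 CPM in OB (SD, n = 4) and 59.5 ± 2.87 CPM in control (SD, n = 3). Pcdh9, a delta-1 member, averaged 18.8 ± 1.70 CPM in OB and 19.7 ± 4.18 CPM in control, and the log2 fold changes of both genes lay within 1 SE of 0 (-0.03 ± 0.17 and -0.07 ± 0.17, edgeR adjusted p = 0.922 and 0.837). Pcdh1, also delta-1, was low but separated the groups, with 4.83, 3.48, 2.87 and 2.23 CPM in OB 1 to 4, against 1.72, 1.68 and 0.634 CPM in control 1 to 3. Its log2 fold change was 1.30 ± 0.41 (edgeR adjusted p = 0.0976, and 0.0425 with a block on replicate number). The remaining 7, Pcdh8, Pcdh10, Pcdh11x, Pcdh12, Pcdh15, Pcdh17 and Pcdh20, were too rare to test, with 76 counts in all over the OB and 70 over the control libraries. Of those, Pcdh20 had the most, 53 counts, of which 33 were in control 3. Summed over the 12 genes, the level was 187, 145, 245 and 222 CPM in OB 1 to 4, against 321, 311 and 395 CPM in control 1 to 3, a ratio of means of 0.583.

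Among the classical cadherins, Cdh2 and Cdh11 gave the highest levels. Cdh2 encodes N-cadherin, the type I cadherin of mesenchymal cells, neurons and heart muscle, and lies at chr18:16588877-16809246. It stood at 323, 406, 419 and 380 CPM in OB 1 to 4, against 239, 309 and 199 CPM in control 1 to 3. Every OB library was above every control library, yet the log2 fold change of 0.62 ± 0.17 missed the threshold (edgeR adjusted p = 0.0652, limma-voom 0.0594, DESeq2 0.0115). The C1 and C2 libraries alone gave 0.42 (edgeR adjusted p = 0.189) and those with no C number 0.99. With the label set as a block Cdh2 passed (edgeR adjusted p = 0.0318).

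Cdh11 encodes cadherin-11, a type II cadherin also called OB-cadherin and known from osteoblasts and stroma, and lies at chr8:102632095-102785642. It stood at 336, 327, 483 and 437 CPM in OB 1 to 4, against 345, 300 and 344 CPM in control 1 to 3. The groups overlapped, with OB 3 and OB 4 above the other 5 libraries, and the log2 fold change was 0.26 ± 0.16 (edgeR adjusted p = 0.358). Cdh13, which encodes the membrane-anchored T-cadherin, a receptor of adiponectin that lacks a cytoplasmic tail, stood at 109, 83.0, 89.1 and 81.4 CPM in OB 1 to 4, against 63.5, 71.2 and 40.2 CPM in control 1 to 3. Like Cdh2 it did not overlap between groups and did not pass (log2 fold change 0.64 ± 0.20, edgeR adjusted p = 0.101, DESeq2 0.0372, and edgeR with the label set as a block 0.0332).

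Some cadherins best known as markers of other lineages were rare. Cdh1, the gene of E-cadherin of epithelia, had 1.30, 0.869, 0.324 and 1.03 CPM in OB 1 to 4 and 1.21, 3.24 and 1.15 CPM in control 1 to 3, overlapping between groups (edgeR adjusted p = 0.243). Cdh5, the gene of VE-cadherin of endothelium, had 6 counts over the OB and 4 over the control libraries. Cdh15, the gene of M-cadherin of muscle, had 0 and 3 counts, and Cdh3, the gene of P-cadherin of epithelia, had 5 and 12. Cdh4, Cdh7, Cdh8, Cdh12, Cdh20 and Cdh22 had 0 counts in all 7 libraries. Of the endothelial markers 2 of 8 were tested and did not pass, Tek with a mean of 5.65 CPM in OB and 5.58 CPM in control and Cd34 with 8.97 and 5.41 CPM, while Pecam1 had 29 counts over OB and 14 over control and Tie1 had 0. The endothelial list summed to 8.03 to 24.5 CPM in OB and 10.7 to 11.7 CPM in control. The muscle list, with 2 of 7 tested, summed to 0.650 to 1.43 CPM in OB and 1.19 to 2.62 CPM in control, and Myod1 had 0 counts. The neural list, with 3 of 8 tested, summed to 140 to 300 CPM in OB and 115 to 162 CPM in control, mostly from Map2, with Tubb3 lower in OB (edgeR adjusted p = 0.0452) and Snap25 and Elavl4 at 0. The part of such cells in the cadherin levels was not tested.

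The tested members left among the numbered cadherins include Cdh23, a long cadherin of the tip links of hair cells. It had 0.975, 0.658, 1.06 and 1.03 CPM in OB 1 to 4, against 1.64, 1.76 and 2.74 CPM in control 1 to 3, with 23 to 77 counts a library. The groups did not overlap and edgeR's test just missed (log2 fold change -1.14 ± 0.30, adjusted p = 0.0558, limma-voom 0.0408, and edgeR with the label set as a block 0.0233). Cdh24, a type II cadherin, averaged 4.58 ± 1.26 CPM in OB and 7.78 ± 1.76 CPM in control (log2 fold change -0.76 ± 0.27, edgeR adjusted p = 0.125, and 0.0232 with the label set as a block). Cdh18, type II and known from brain, averaged 23.5 ± 7.71 CPM in OB (SD, n = 4) and 30.7 ± 3.71 CPM in control (SD, n = 3), without passing (edgeR adjusted p = 0.394). Cdh6 and Cdh17 were below 5 CPM in each library and overlapped between groups (edgeR adjusted p = 0.270 and 0.955).

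Cdh26 and Cdh10 separated by label set in both groups. Cdh26, known from epithelia with eosinophilic inflammation, stood at 32.4 and 25.2 CPM in OB 1 and 2, at 8.33 and 6.99 CPM in OB 3 and 4, while control 1 and 2 had 25.1 and 34.9 CPM and control 3 had 11.7 CPM. Cdh10, a type II cadherin known from brain, ran the other way, at 2.36 and 1.90 CPM in OB 1 and 2, 13.2 and 14.1 CPM in OB 3 and 4, and control 1 and 2 had 4.91 and 2.67 CPM, with 14.7 CPM in control 3. In an edgeR fit over all genes with terms for treatment and label set, chosen after these values were seen, libraries with no C number differed from C1 and C2 libraries by a log2 fold change of -1.68 for Cdh26 (adjusted p = 0.0114) and 2.38 for Cdh10 (adjusted p = 0.00957). That fit called 5 of the 55 members, against 8.6% of all genes; the other three were Pcdh19 (0.71), Pcdhgc3 (-0.58) and Pcdhgb1 (-2.03, edgeR adjusted p = 0.0308, 0.0269 and 0.0432). What the label sets stand for is not given in the labels.

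The clustered protocadherins lie in a row on the plus strand of chromosome 18 in mm10, the 14 Pcdha genes at 36930184 to 37187661, the 22 Pcdhb genes at 37264938 to 37524479 and the 22 Pcdhg genes at 37661793 to 37841873. Each Pcdha or Pcdhg gene has its own first exon joined to constant exons of its cluster, whereas a Pcdhb gene has no constant exons. The count table reflects this, because fragments on exons of several genes were not counted. The exon bases shared with another gene made up 48.6% to 93.0% of each Pcdha gene and 31.5% to 100% of each Pcdhg gene, with medians of 53.6% and 45.3%, while the Pcdhb median was 0% and the highest 63.5% (Pcdhb12, with Gm37446). A Pcdha or Pcdhg count therefore comes from fragments that reach the gene's own exons and leaves out those within the constant exons.

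The Pcdha cluster was nearly silent. It had 38 counts over the OB and 33 over the control libraries, 7 of its 14 genes had 0 counts, and no gene could be tested. Pcdhac2 had the most, 31 counts. The name table gives the symbol Pcdha11 to a pair of gene IDs, 1 of them at 0. The summed level was 0.203 to 0.648 CPM in OB and 0.119 to 0.455 CPM in control.

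The Pcdhb cluster was expressed in every library, and control 3 had less of it than the other 6 libraries. Its summed level was 168, 218, 182 and 201 CPM in OB 1 to 4, against 199, 182 and 82.1 CPM in control 1 to 3. The OB libraries thus span control 1 and 2, and control 3 lies below all of them. The means were 192 ± 21.8 CPM in OB (SD, n = 4) and 155 ± 63.4 CPM in control (SD, n = 3). The log2 ratio of these means was 0.31, and it was 0.01 without control 3.

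Gene by gene the same library stood out. Control 3 was the lowest of the 7 libraries for 20 of the 20 tested Pcdhb genes. How many of all genes were lowest in control 3 was not counted. All 20 log2 fold changes were positive, where 7655 of the 15441 genes tested were positive. The Pcdhb values ran from 0.18 to 1.12 with a median of 0.42. Of the 20 genes, 0 passed by edgeR, DESeq2 or limma-voom and 0 had an unadjusted edgeR p under 0.05. Without control 3 there were 16 positive and 4 negative, with a median of 0.12. Among the C1 and C2 libraries 13 were positive and 7 negative (median 0.07), while among those with no C number, whose single control is control 3, all 20 were positive (median 1.66).

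**Figure D2:**
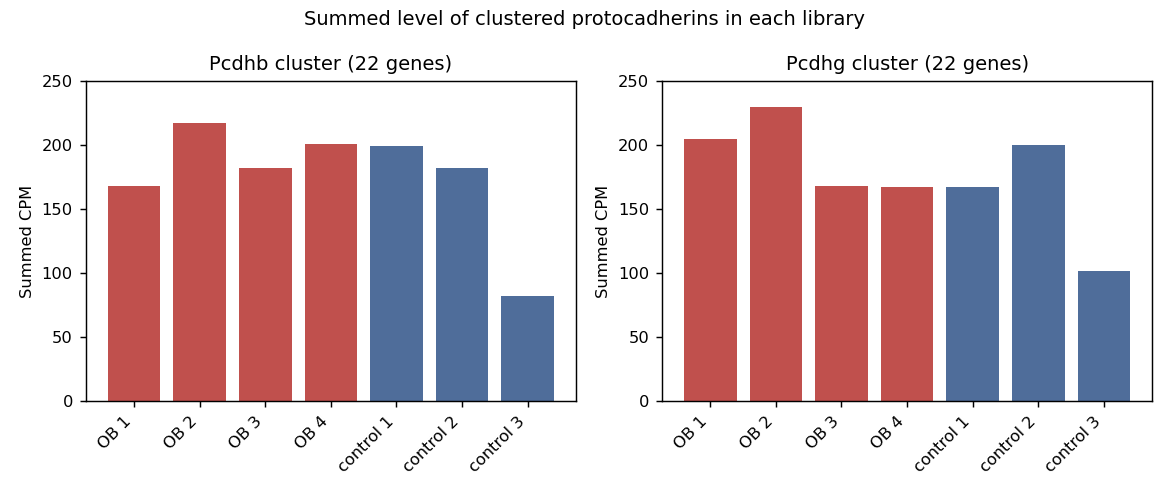
Summed CPM of all 22 Pcdhb genes (left panel) and all 22 Pcdhg genes (right panel), 1 bar per library, OB in red and control in blue. Control 3 is the lowest bar in both panels, at 82.1 CPM for Pcdhb and 102 CPM for Pcdhg.

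The highest Pcdhb genes by CPM were Pcdhb16, Pcdhb17, Pcdhb14, Pcdhb19 and Pcdhb22. Pcdhb16 stood at 48.2, 63.1, 54.1 and 56.2 CPM in OB 1 to 4, against 60.5, 57.2 and 26.2 CPM in control 1 to 3. Pcdhb17 stood at 25.8, 35.4, 29.3 and 30.7 CPM in OB 1 to 4, against 31.3, 28.3 and 14.6 CPM in control 1 to 3. Pcdhb14 stood at 17.5, 23.1, 15.6 and 20.0 CPM in OB 1 to 4, against 21.5, 21.1 and 7.22 CPM in control 1 to 3. In each of these 3 genes the OB range covered control 1 and 2, and control 3 lay below it. Pcdhb19 and Pcdhb22 were also lowest in control 3, with 6.11 CPM each in control 3 and 9.02 to 15.4 CPM in the other 6.

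Pcdhb16 and Pcdhb17 kept a nearly steady share of the cluster while its total varied, and Pcdhb14 and Pcdhb9 varied more. Pcdhb16 gave 28.7%, 29.0%, 29.7% and 27.9% of the summed Pcdhb level in OB 1 to 4. Its share was 30.3%, 31.4% and 32.0% in control 1 to 3, each above all OB libraries. Pcdhb17 gave 15.2% to 16.3% in OB and 15.5% to 17.8% in control, and Pcdhb14 gave 8.56% to 10.6% in OB and 8.79% to 11.5% in control. The share of Pcdhb9 ran from 1.90% to 3.12% in OB and from 0.821% to 1.87% in control. Pcdhb11 was far lower in control 3, at 0.872 CPM there against 4.03 to 5.85 CPM in the OB libraries. Control 1 and 2 had 4.76 and 5.52 CPM of it. Pcdhb15 likewise stood at 2.10 CPM in control 3, against 8.89 to 12.6 CPM in OB and 9.42 and 10.3 CPM in control 1 and 2. Pcdhb9 and Pcdhb4 were the Pcdhb genes whose groups did not overlap, Pcdhb9 with 3.47 to 6.67 CPM in OB and 0.674 to 3.45 CPM in control, and Pcdhb4 with 0.845 to 1.49 CPM in OB and 0.159 to 0.744 CPM in control (edgeR adjusted p = 0.256 and 0.200). Of the 50-base words in Pcdhb transcripts a median of 4.48% recur in other genes, where fragments that align to several places would be lost.

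The Pcdhg cluster was led by Pcdhgc3, a C-type gamma protocadherin expressed widely outside neurons. Pcdhgc3 stood at 153, 157, 110 and 107 CPM in OB 1 to 4, against 103, 133 and 73.6 CPM in control 1 to 3. The groups overlapped and the log2 fold change was 0.35 ± 0.23 (edgeR adjusted p = 0.378). The whole cluster summed to 205, 230, 168 and 167 CPM in OB 1 to 4, against 167, 200 and 102 CPM in control 1 to 3, and the log2 ratio of means was 0.30, or 0.07 without control 3. Pcdhgc3 gave 63.7% to 74.7% of the summed Pcdhg level in OB and 61.4% to 72.2% in control. With the label set as a block, it was called higher (edgeR adjusted p = 0.0249), with log2 fold changes of 0.40 among the C1 and C2 libraries (edgeR adjusted p = 0.132) and 0.55 among those with no C number.

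The other 21 Pcdhg genes summed to 51.7, 72.5, 57.2 and 60.6 CPM in OB 1 to 4, against 64.6, 66.8 and 28.3 CPM in control 1 to 3. As for Pcdhb, control 3 lay below all OB libraries and control 1 and 2 lay within their range. The next highest, Pcdhgb7, stood at 20.4, 24.6, 21.6 and 20.9 CPM in OB 1 to 4, against 22.8, 22.1 and 9.56 CPM in control 1 to 3. Pcdhga6 stood at 8.0, 12.7, 8.10 and 9.92 CPM in OB 1 to 4, against 7.98, 7.97 and 2.42 CPM in control 1 to 3. Pcdhgb2 was lowest in OB 1 rather than in control 3, with 4.71, 7.28, 7.87 and 11.6 CPM in OB 1 to 4, against 8.15, 7.68 and 6.15 CPM in control 1 to 3. Pcdhgc4, another C-type gene, had 2.48 to 3.57 CPM in OB, against 3.08, 3.30 and 1.11 CPM in control 1 to 3. Control 3 was the lowest library for 14 of the 19 tested Pcdhg genes and OB 1 for 4. Again the share over all genes was not counted.

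Of the 19, 10 had positive and 9 negative log2 fold changes (median 0.04), and 0 passed by edgeR, with 1 lower at an unadjusted p under 0.05. DESeq2 called 0, and limma-voom called 1, Pcdhga5 (adjusted p = 0.0443). Pcdhga5 had 0.325 to 0.620 CPM in OB, against 0.957, 0.939 and 0.753 CPM in control 1 to 3. Without control 3, 3 of the 19 were positive and 16 negative (median -0.30), so the sign of the Pcdhg median turned on that library.

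**Figure D3:**
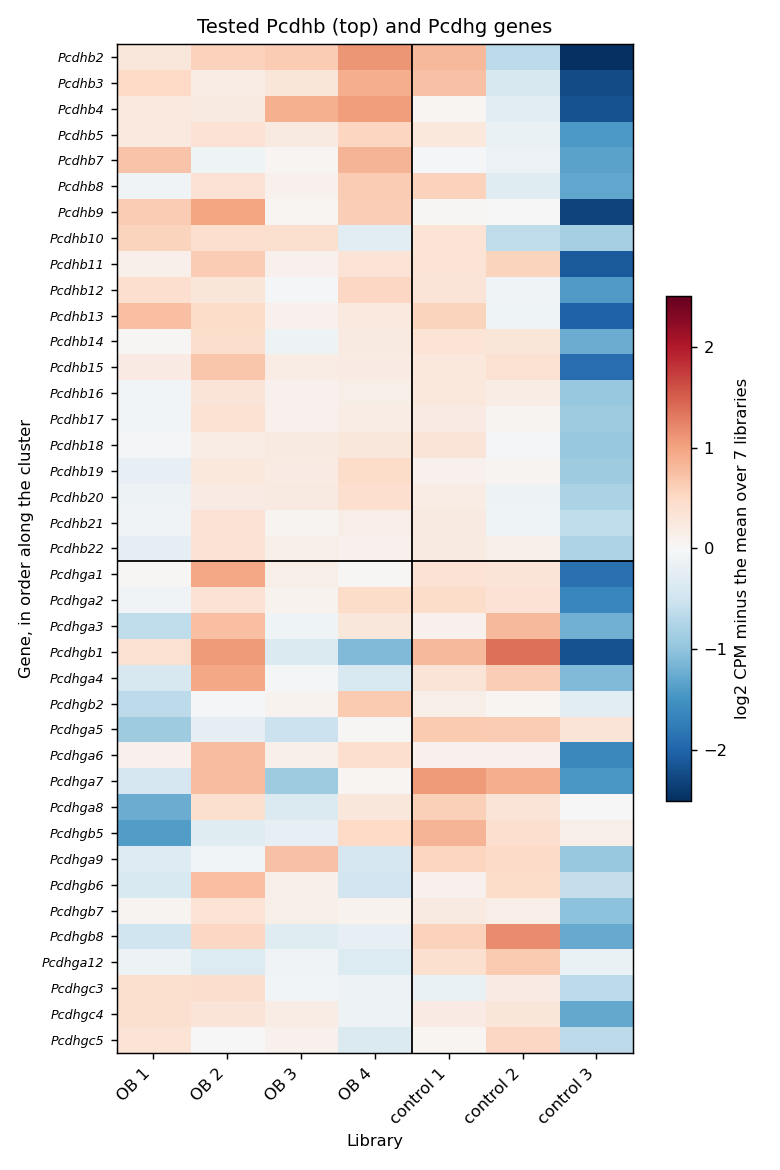
Log2 CPM of the 39 tested clustered genes minus each gene's mean over the 7 libraries, with genes in their order along chromosome 18 (Pcdhb above the line, Pcdhg below) and OB libraries left of control libraries. The control 3 column is below the mean for all 20 Pcdhb genes and varies more among the Pcdhg genes.

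The difference of the OB effect between the label sets was tested over all genes with an interaction term in edgeR, again chosen after the values were seen. It called 6 of the 55 members, against 6.49% of all genes. At an unadjusted p under 0.05 it had 25 of the 55 members, against 27.8% of all genes. Of these 25, 17 were among the 20 tested Pcdhb genes. The 6 members called were Pcdhb4, Pcdhb11, Pcdhb14, Pcdhb15, Pcdhb16 and Pcdhgb7, each more positive among the libraries with no C number. For Pcdhb16 the log2 fold change was 1.06 among the libraries with no C number and -0.08 among the C1 and C2 libraries, a fitted difference of 1.15 (edgeR adjusted p = 0.0367). For Pcdhb15 the corresponding values were 2.07 and 0.15, with a fitted difference of 1.94 (edgeR adjusted p = 0.0312). The set with no C number has control 3 as its single control, so the label set and that library cannot be told apart here.

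**Figure D4:**
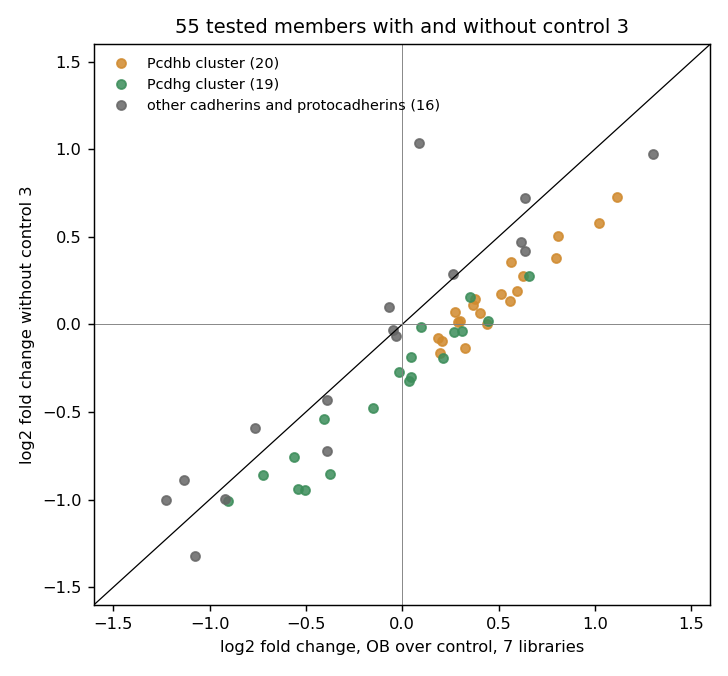
Log2 fold change of OB over control for the 55 tested members, with all 7 libraries on the x axis and without control 3 on the y axis, and the line of equal values. The 20 Pcdhb genes lie right of 0 and below the line, and their median moves to 0.12 from 0.42 when control 3 is left out.

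Compared per kilobase of exon not shared with another gene, as means over the 7 libraries, the order of levels was Pcdhgc3 at 65.6, Cdh11 at 41.3, Cdh2 at 40.3, Pcdh19 at 12.4, Pcdhgb7 at 11.1, Pcdh18 at 11.0 and Pcdhb16 at 9.99 CPM per kilobase. Cdh26, Cdh13 and Pcdh7 followed at 6.85, 6.84 and 6.09. Fragments that reach from a gene's own exons into constant exons may be counted, while the divisor holds own bases only. The Pcdhg values may therefore be too high beside those of Cdh11 and Cdh2, which share no exon bases. Cdh11 and Cdh2 differ by less than the spread of either gene between libraries, as do Pcdhgb7, Pcdh18 and Pcdhb16. On the deposited exon length, which includes constant exons that were not counted, Pcdhgc3 comes after Cdh11 and Cdh2, at 21.7 CPM per kilobase.

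Genes that act with the members were taken from lists named for their role, and no list was tested as a set. Beside the counts below, edgeR called 4.32% of all 15441 tested genes higher and 3.72% lower. At an unadjusted edgeR p under 0.05 these shares were 12.8% and 12.4%. Of 13 tested catenins and junction partners 1 rose and 0 fell. The gene that rose was Ctnnb1, which encodes beta-catenin, at 743, 727, 666 and 695 CPM in OB 1 to 4, against 505, 530 and 503 CPM in control 1 to 3 (log2 fold change 0.47 ± 0.10, edgeR adjusted p = 0.0294). Its groups were well apart, but the call ended without each library other than control 3 (edgeR adjusted p up to 0.103) and under the replicate block (0.0555). Vcl, which encodes vinculin and is among the most abundant of the list, stood at 483 to 601 CPM in OB and 384 to 667 CPM in control (log2 fold change 0.00, edgeR adjusted p = 0.998). At an unadjusted p under 0.05 edgeR had 2 higher and 0 lower, and the list median was 0.07.

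Among 9 tested atypical and desmosomal cadherins 1 rose and 0 fell, with 3 higher and 3 lower at an unadjusted edgeR p under 0.05. Clstn1, which encodes calsyntenin-1, stood at 603, 628, 444 and 455 CPM in OB 1 to 4, against 319, 347 and 258 CPM in control 1 to 3 (log2 fold change 0.79 ± 0.18, edgeR adjusted p = 0.0351). Its call ended without each library other than OB 3 (adjusted p up to 0.101). Fat4, a giant cadherin of planar polarity, had 567, 598, 549 and 573 CPM in OB 1 to 4, against 401, 349 and 119 CPM in control 1 to 3, another gene with its lowest value in control 3 (edgeR adjusted p = 0.137). Fat1, of the same group, had 398 to 423 CPM in OB, against 623, 630 and 464 CPM in control 1 to 3 (log2 fold change -0.50 ± 0.13, edgeR adjusted p = 0.0543).

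Of 12 genes for proteases that cut cadherins, or for subunits of such proteases, 2 rose and 0 fell. The list median was 0.25, with 4 higher and 0 lower at an unadjusted edgeR p under 0.05. Both encode gamma-secretase subunits. Aph1b stood at 32.2, 33.4, 42.0 and 39.7 CPM in OB 1 to 4, against 21.8, 21.4 and 17.2 CPM in control 1 to 3 (log2 fold change 0.87 ± 0.15, edgeR adjusted p = 0.0163, and 0.0506 under the replicate block). Psen2 averaged 24.4 ± 1.11 CPM in OB (SD, n = 4) and 15.1 ± 3.33 CPM in control (SD, n = 3; log2 fold change 0.69 ± 0.17, edgeR adjusted p = 0.0442, and 0.0645 under the replicate block). The Psen2 call ended without each library other than control 1 (edgeR adjusted p up to 0.135) and under upper-quartile scaling (0.0522), and that of Aph1b without control 2 (0.0576). Adam10, the main sheddase of N- and E-cadherin, stood at 194 to 210 CPM in OB and 177 to 228 CPM in control (edgeR adjusted p = 0.874). The most abundant of the list were Mmp14, a membrane metalloproteinase, with no overlap between groups but an edgeR adjusted p of 0.0641, and Adam9 (0.123).

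Among 19 genes listed as regulators of the clustered protocadherins, 1 rose and 2 fell. The role of each gene in the choice of clustered protocadherin promoters was not tested. Negative log2 fold changes were found for 17 of the 19, where 7786 of the 15441 genes tested were negative, and the list median was -0.20. Rad21, a cohesin subunit gene, stood at 188, 224, 193 and 196 CPM in OB 1 to 4, against 262, 452 and 416 CPM in control 1 to 3 (log2 fold change -0.91 ± 0.19, edgeR adjusted p = 0.0274). Ctcf, whose protein binds these promoters with cohesin, stood at 74.1, 77.2, 73.4 and 83.1 CPM in OB 1 to 4, against 90.7, 113 and 122 CPM in control 1 to 3 (log2 fold change -0.49 ± 0.12, edgeR adjusted p = 0.0461, and 0.0598 under the replicate block). Both are also needed in dividing cells, and both were lowest in control 1 among the controls, as the mitosis list was. Their calls ended without each library other than control 1 (edgeR adjusted p up to 0.0939 for Rad21 and 0.138 for Ctcf). The part of the mitosis change in these falls was not tested. Ehmt1, a histone methyltransferase gene, rose by 0.41 ± 0.09 on the log2 scale (edgeR adjusted p = 0.0359), a call that ended without any 1 of the 7 libraries (0.0530 to 0.132) and under the replicate block (0.0817).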

How the data were processed

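Total RNA of C3H10T1/2 cells (Trizol, TruSeq RNA v2, a kit that does not mark strand, per the labels' protocols) was measured in 4 OB and 3 control libraries. The authors deposited 1 table of raw counts per gene, made with featureCounts 1.6.4 on paired fragments without strand, multimapping or overlap options and with Ensembl 94 annotation, per the file headers. Trimmomatic, HISAT2 and mm10 are named in the submitters' processing notes, with tool versions not given in the sources used here. The table's columns were matched to samples through the input names in its header. The deposited gene length, in bases of exon, was used only for levels per kilobase.

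The counts were fitted with edgeR 4.0.16 (R 4.3.3; filterByExpr, TMM, glmQLFTest) over all 15441 genes that passed the filter, with Benjamini-Hochberg adjustment over all of them and a threshold of 0.05. Symbols came from the gene name table, which gave 54409 of 54532 features a symbol. DESeq2 1.42.0, limma-voom (limma 3.58.1), other scalings, no filter, blocks and left-out libraries were alternatives, and scripts were tested on simulated data. Library totals were 21213328 to 46530017, and intervals or floors cover counting error only. Libraries of a group differed by 13.6 to 148 times the sampling noise (chi-square per degree of freedom), so none was a copy of another. No paired design is stated. Deviations from the group means of libraries with the same number correlated at 0.167, 0.523 and 0.398. OB 1 correlated more with control 2 (0.209) than with control 1, and OB 4 correlated with control 3 at 0.270. These values cannot tell pairing by number from a likeness within label sets. The main fit therefore had no block, and the replicate number was a block in an alternative fit only. Values with the replicate block are given where a named gene's call changes.

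Per-library values are given for members past the threshold, the 8 highest by level per kilobase, the best-known lineage cadherins with over 10 counts in a library and the 5 highest of each cluster, and for other lists the called genes and the 2 highest. The members and lists were chosen with earlier results of these data known.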

Additional observations from a re-analysis of the deposited data

Results flagged for a closer look

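For Pcdhb15, OB 2 stood apart from the other OB libraries, with its gap to the nearest of them at 0.946 of the group's whole range on the log2 CPM scale. For Pcdhga1, OB 2 was again apart, at 0.875 of the range. The critical share for 4 libraries is 0.829, and chance alone passes it in about 1 in 20 groups. Of the 55 tested members these 2 passed it.

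The OB effect differed between the libraries with no C number and the C1 and C2 libraries in an edgeR interaction test over all genes for 6 members. The difference of log2 fold changes was 2.80 for Pcdhb4, 2.37 for Pcdhb11, 1.94 for Pcdhb15, 1.37 for Pcdhb14, 1.15 for Pcdhb16 and 1.14 for Pcdhgb7, with edgeR adjusted p of 0.0312 to 0.0489. The test was chosen after the data were seen, and the libraries with no C number include control 3 as their single control.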

How the results depend on the processing

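Pcdh7 and Pcdh19 kept their direction under every alternative tried, and the number of calls moved with the test. Members called higher numbered 0 with all libraries, 3 by DESeq2, 1 with the replicate block, 4 with the label set as a block, 1 within the C1 and C2 libraries and 29 within those with no C number, where 18.9% of all genes were called higher and the single control has no spread of its own. Members called lower numbered 2 with all libraries, 4 by DESeq2, limma-voom or the label set block, 1 within the C1 and C2 libraries and 7 within those with no C number (21.2% of all genes). With 1 library left out, 0 were called higher and 0 to 1 lower. Over all genes, 667 were called higher and 574 lower, against 1326 and 1219 by DESeq2, 1247 and 1081 by limma-voom, 1433 and 1256 with the label set block and 3053 and 3413 within the libraries with no C number, and 1030 were called higher within the C1 and C2 libraries. With 1 library left out these counts were 190 to 575 higher and 104 to 702 lower. The cause of these shifts was not tested, and a left-out fit also has fewer libraries. With the replicate block, 831 genes were called higher and 522 lower, Pcdh1 was added (edgeR adjusted p = 0.0425), and Pcdh7 and Pcdh19 passed at 0.0232 and 0.0119. The log2 ratio of summed level ranged over 0.01 to 0.54 for Pcdhb, 0.07 to 0.51 for Pcdhg and -0.07 to 0.82 for Pcdha with 1 library left out. Upper-quartile scaling moved the median log2 fold change of all genes by 0.0115 and DESeq2 size factors by -0.00464. Depth limits the Pcdha cluster, whose genes had too few counts to test.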
